A study of Drosophila melanogaster with 4 samples.

Results

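HP1c belongs to the heterochromatin protein 1 family of Drosophila melanogaster. These proteins have a chromodomain, a fold that can bind methylated histone tails. Unlike the founding member of the family, HP1c is found mainly in euchromatin. It forms a complex with the zinc finger proteins WOC and ROW and is known at the start sites of active genes. Most of the regions at which HP1c was called lay near another such region. The regions described here are the exceptions. Each lay alone, under 5000 bp wide, with at least 20000 bp free of enriched regions on either side.

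HP1c was mapped by chromatin immunoprecipitation followed by sequencing (ChIP-seq) in head nuclei of the wild-type strain Oregon-R (Oregon-R-modENCODE) at the mixed adult stage, with the antibody HP1c (MO 462). The series holds 4 samples, 2 HP1c ChIP libraries and 2 input libraries, and the inputs were the controls of the ChIP libraries with matching numbers. Flies came from population cages, and heads, which hold many cell types, were separated with sieves. Nothing in the labels says that the replicates were separate collections, so an SD here measures the spread between these libraries, which may be technical.

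The regions were read from the replicate set, the list in which the authors combined both ChIP libraries. It held 7116 enriched regions, of which 6884 lay on the chromosome arms X, 2L, 2R, 3L and 3R. The limits on width and gap left 421 isolated regions, 6.12% of those on these arms, after the first and last region of each arm was dropped. A further 12 regions met the gap limit and were too wide. The 421 were thus chosen by their widths and gaps in the replicate set, and those values are given as a description. Each was then followed in the separate lists of replicate 1 and replicate 2. Since the combined list was made from the same libraries, no comparison below was tested. Positions are on FlyBase release 5 of the genome, per the file headers. No annotation of that build was used here, so the regions are named by position and not by gene, and their sequences are not shown.

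The isolated regions covered 0.876 Mb, and the stretches between their neighbours covered 38.0 Mb, or 31.9% of the 119.0 Mb of the 5 arms. The median stretch was 91798 bp long, from 42579 to 457307 bp. The smaller of the 2 gaps beside a region had a median of 28884 bp and the largest such value was 154649 bp. Among the 6043 other regions under 5000 bp with a neighbour on both sides, the smaller gap had a median of 2507 bp. At the gap limit, the regions just inside were X from 867634 to 869171 (smaller gap 20051 bp), 2L from 4392915 to 4395205 (20113 bp) and 3R from 19015029 to 19016813 (20140 bp). Just outside lay 3L from 15355893 to 15357213 and 3L from 15377145 to 15378454, which are neighbours and share a gap of 19932 bp, and 2R from 11541006 to 11543301 (19860 bp). At the width limit, the widest isolated regions were 2R from 974167 to 979145 (4979 bp), 3R from 1342580 to 1347408 (4829 bp) and 3R from 6463366 to 6468163 (4798 bp). The regions left out by the smallest margin of width were 2L from 21259929 to 21264928 (5000 bp), 3L from 24064007 to 24069033 (5027 bp) and X from 1902351 to 1907682 (5332 bp).

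Isolated regions were narrow and mostly low in score, though a few were among the strongest of the list. The authors deposited a score with each region without stating its scale in the sources used here, so scores are read only as ranks or levels within 1 list. The median replicate-set score was 0.445 for isolated regions and 0.693 for the 6052 other regions under 5000 bp. The median width was 1968 bp for isolated regions and 2221 bp for the others. Of the isolated regions, 174 (41.3%) fell in the lowest 25% of the scores of the 5 arms, against 1547 of the others (25.6%). In the highest 25% were 52 isolated regions (12.4%) and 1416 others (23.4%). Of the 100 highest-scoring regions of the 5 arms 6 were isolated, near the 6.12% that isolated regions made up of all regions there. Of the 10 highest, 2 were isolated.

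Score varied with width, as the plot of width against score shows. Regions narrower than 1301 bp, the narrowest cluster in either replicate list, had a median score of 0.368 (53 isolated regions). Those from 1301 to under 2000 bp had a lower median, 0.274 (167 regions). From 2000 to under 3000 bp the median was 0.837 (158 regions), and from 3000 bp upward it was 1.51 (43 regions). The rank correlation of width and score was 0.737 over the 421 isolated regions and 0.754 over the 6052 others. The rank correlation between the smaller gap and score within the isolated regions was 0.0440.

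**Figure D1:**
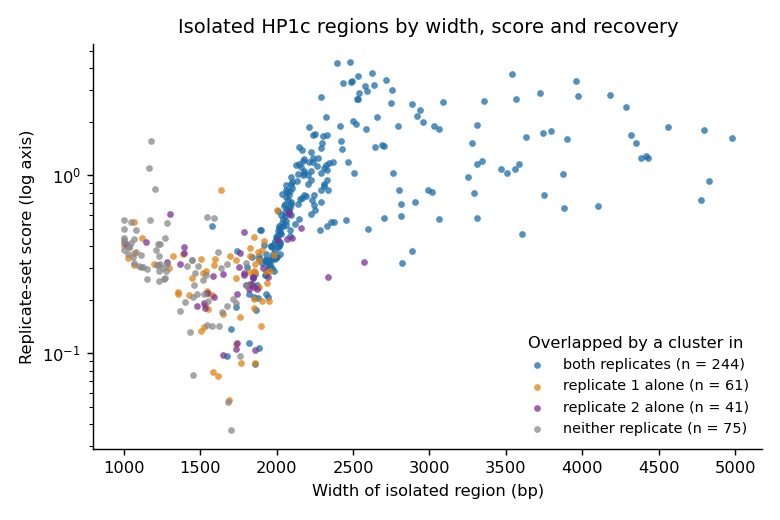
Width in bp (horizontal) and replicate-set score on a log axis (vertical) of the 421 isolated regions, 1 point each, coloured by whether a cluster of both replicates (244), of 1 alone (61 and 41) or of neither (75) overlaps it. The points for both replicates start at 1575 bp and include every score above the highest one found in neither (1.55). Those for neither reach down to 1001 bp.

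Clusters here are the enriched regions of a replicate list, and an isolated region was counted as recovered when a cluster shared at least 1 bp with it. Of the 421 isolated regions, 244 were overlapped in both replicates, which is 58.0% (exact 95% interval 53.1 to 62.7). Over all 6884 regions of the 5 arms the share was 71.9%, and over the 6052 other regions under 5000 bp it was 71.0% (69.8 to 72.1). Neither replicate overlapped 75 isolated regions, or 17.8% (14.3 to 21.8), against 10.5% over all regions of the 5 arms and 10.7% of the others (9.91 to 11.5). Replicate 1 alone overlapped 61 isolated regions (14.5%), against 10.6% over all regions of the 5 arms and 11.1% of the others. Replicate 2 alone overlapped 41 (9.74%), against 6.96% over all and 7.24% of the others. These intervals cover the number of regions and not the spread between fly collections, and the depth of the libraries is unknown.

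The lower recovery was of similar size in each library. Replicate 1 overlapped 72.4% of the isolated regions and 82.1% of the others, where 82.6% of all regions of the 5 arms were overlapped. Replicate 2 overlapped 67.7% of the isolated regions and 78.2% of the others, with 78.9% over all. The mean was 70.1% ± 3.36 for isolated regions and 80.2% ± 2.73 for the others (SD, n = 2 each). The difference, isolated minus other, was -10.1 ± 0.625 percentage points (SD, n = 2), so it was larger than the spread between the replicates. The clusters that overlapped isolated regions also ranked lower in their own lists. Their median score percentile among all clusters of the 5 arms was 36.6 in replicate 1, against 48.7 for the others, and 31.8 in replicate 2, against 48.9. The difference was -14.6 ± 3.60 points (SD, n = 2). The matched clusters were narrower by a similar amount in both libraries, with medians of 2073 and 2061 bp for isolated regions and 2242 and 2256 bp for the others, a difference of -182 ± 18.4 bp (SD, n = 2).

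At equal width the gap in recovery was not seen. From 2000 to under 3000 bp, 94.3% of isolated regions (89.5 to 97.4, n = 158) and 95.0% of the others (94.1 to 95.8, n = 2939) were overlapped in both replicates. From 1301 to under 2000 bp the shares were 31.1% (24.2 to 38.8, n = 167) and 26.2% (24.0 to 28.4, n = 1544). All 43 isolated regions of 3000 bp or more were overlapped in both, against 97.9% of 1123 others. Of the narrowest class, under 1301 bp, 0 of 53 isolated regions were overlapped in both (exact 95% interval 0 to 6.72%), and 1 of 446 others was. This class held 12.6% of the isolated regions and 7.37% of the others. When the others were reweighted to the width classes of the isolated regions, 58.0% of isolated regions and 56.1% of the others were overlapped in both. The difference in single-replicate recovery was then 0.726 ± 0.813 points (SD, n = 2), within the spread between replicates. Reweighted instead to the classes of score (each 25% of the regions of the 5 arms), the others reached 58.8%, against 58.0% for isolated regions. The single-replicate difference was then -2.03 ± 0.807 points (SD, n = 2), larger than the spread between replicates. It was -2.60 in replicate 1 and -1.46 in replicate 2, so a small deficit remained with score classes. Width and score come from the combined list, which shares its libraries with the replicates, so these shares describe the lists and no test was made.

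**Figure D2:**
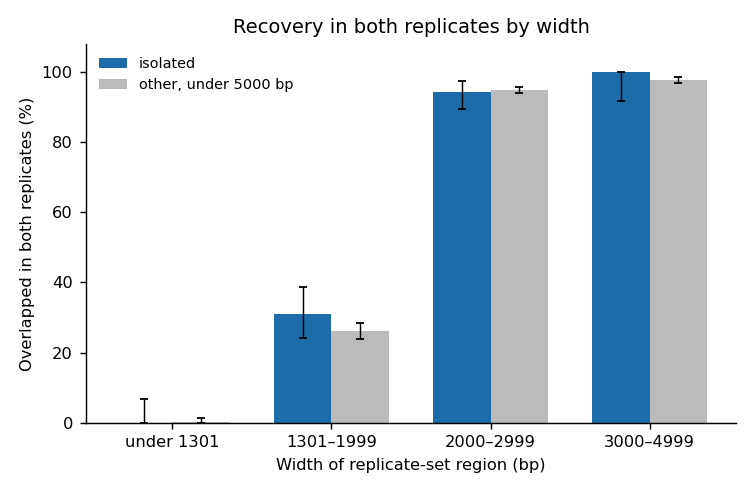
Percent of replicate-set regions overlapped by a cluster in both replicates (vertical) in 4 width classes in bp (horizontal), for isolated regions (left bars) and the other regions under 5000 bp (right bars), with exact 95% intervals. From 1301 to under 2000 bp the bars stand at 31.1% and 26.2%, and from 2000 to under 3000 bp at 94.3% and 95.0%.

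Recovery and score were lower at wider spacing already below the gap limit, with no steady further decline beyond it. With a smaller gap of 1 to 5 kb, 84.0% of regions under 5000 bp were overlapped in replicate 1 and 80.6% in replicate 2 (2737 regions). At 10 to 20 kb, below the limit, the shares were 75.3% and 70.6% (676 regions). Among isolated regions they were 71.4% and 66.8% at 20 to 30 kb (220 regions), 76.5% and 72.0% at 30 to 50 kb (132 regions) and 68.1% and 62.3% at 50 kb or more (69 regions). The median percentile of the overlapping cluster in replicate 1 and replicate 2 was 51.8 in each at 1 to 5 kb, 38.6 and 37.5 at 10 to 20 kb, and 34.8 and 29.1 at 20 to 30 kb. It was 37.2 and 37.3 at 30 to 50 kb and 37.4 and 35.4 at 50 kb or more. Median widths ran from 2276 bp at 1 to 5 kb to 1896 bp at 50 kb or more.

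**Figure D3:**
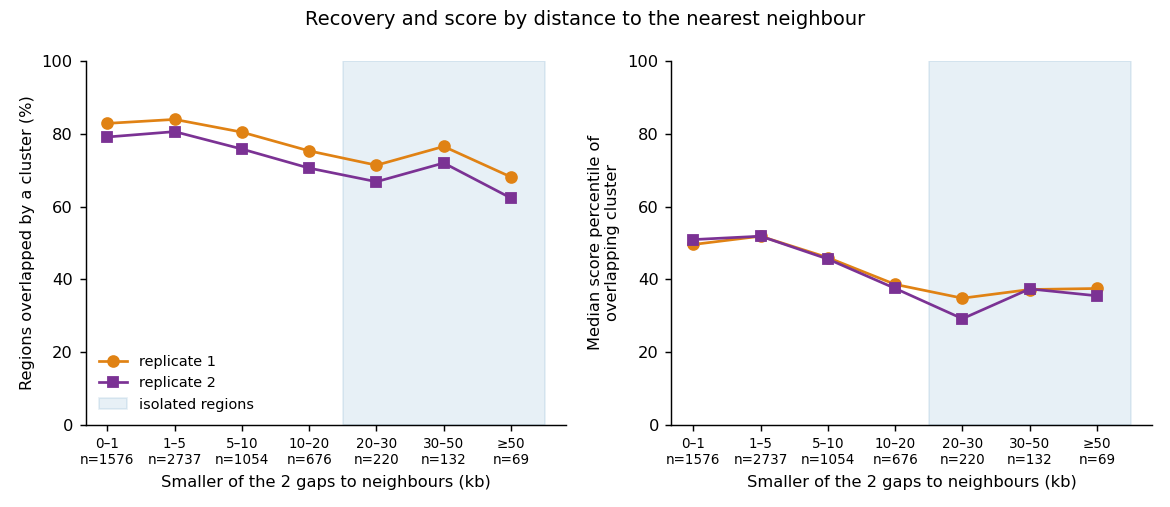
Percent of replicate-set regions under 5000 bp overlapped by a cluster (left) and median score percentile of the overlapping clusters (right) in replicate 1 and replicate 2, by the smaller of the 2 gaps to neighbouring regions in kb. Shading marks the isolated regions. Both measures are highest at 1 to 5 kb and lower from 10 kb upward.

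Most recovered regions also stood alone in the separate lists. The members were chosen for their gaps in a list combined from the same libraries, so the rule itself largely fixes this outcome, and the counts are given as a description. Of the 305 isolated regions overlapped in replicate 1, 302 matched a cluster that was also isolated within that list by the same limits, or 99.0%. In replicate 2 it was 277 of 285, or 97.2%. The mean was 98.1% ± 1.29 (SD, n = 2). Of the 244 regions overlapped in both, 234 were isolated in both lists. Among the 8 exceptions of replicate 2 were 3 wide regions of 3R, each overlapped by 1 cluster in replicate 1 and by 2 clusters in replicate 2. They ran from 1342580 to 1347408, from 2644704 to 2649480 and from 27077258 to 27081816 and were picked out after their values were seen. In the first of them, the replicate 1 cluster covered only the left part, ending at 1345480, where the best-matching cluster of replicate 2 also ended. Run on each replicate list alone, the rule gave 461 isolated clusters for replicate 1 and 471 for replicate 2 (mean 466 ± 7.07, SD, n = 2). An isolated region of the replicate set held 302 of the 461 (65.5%) and 277 of the 471 (58.8%). Of the rest, 154 and 187 lay in a replicate-set region that had a closer neighbour or was too wide, and 5 and 7 in none.

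Edges and ranks of most recovered regions were close in both libraries, about as close as those of the others. In the 241 isolated regions with exactly 1 cluster in each replicate, the start differed by a median of 61 bp (exact interval 50 to 75) and the end by 50 bp (40 to 60). In the 4214 other such regions the medians were 63 bp (59 to 65) and 62 bp (59 to 65). Starts lay within 100 bp of each other in 66.8% of isolated regions and 63.5% of the others, and ends in 73.4% and 64.6%. The scores of the 2 replicates had a Spearman's rho of 0.868 over the 244 isolated regions overlapped in both and 0.889 over 4296 others. These correlations run across regions that share the same 2 libraries, so they carry no p-value. The percentiles of the 2 replicates were within 10 points of each other in 157 of the 244 isolated regions (64.3%), near the 62.1% of the 4296 others. The median absolute difference was 7.36 points for isolated regions and 7.40 for the others. The percentile was higher in replicate 2 in 77 of the 244 (31.6%), against 40.2% of the others, and the median difference, replicate 2 minus replicate 1, was -3.70 points for isolated regions and -2.14 points for the others.

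**Figure D4:**
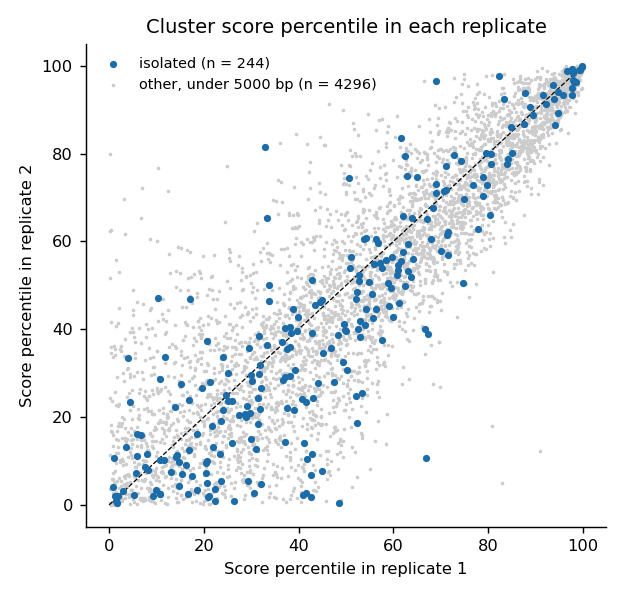
Score percentile of the overlapping cluster in replicate 1 (horizontal) and replicate 2 (vertical) for the 244 isolated regions and the 4296 other regions under 5000 bp overlapped in both. The dashed line marks equal percentiles, and 77 of the 244 isolated regions lie above it.

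The strongest isolated regions matched the top of both replicate lists with nearly the same edges. The highest-scoring was 2R from 19410011 to 19412490, with gaps of 47663 and 21409 bp. It scored 4.31 in the replicate set, 4.29 in replicate 1 and 4.30 in replicate 2, and ranked 6, 7 and 11 on the 5 arms. Next came 2L from 8996317 to 8998714, which scored 4.29, 4.17 and 4.42 in the same lists and ranked 7, 9 and 4. It had 125553 bp without an enriched region to its right, so a region in the top 10 stood at the edge of one of the longer empty stretches.

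The 2L arm held 3 further regions of the 10 strongest. The region from 20348971 to 20351593 scored 3.74 in the replicate set (rank 42) and ranked 40 in replicate 1 and 54 in replicate 2. That from 3300860 to 3304398, 3539 bp wide, scored 3.69 (rank 47) and ranked 43 and 51. The last, from 13459868 to 13462304, scored 3.31 (rank 138) and ranked 107 and 212. The arm 3L held 2. The region from 13505075 to 13507605 scored 3.59 in the replicate set, 3.21 in replicate 1 and 3.99 in replicate 2, and its right gap of 351240 bp was the longest beside any isolated region. The other, from 13956731 to 13959448, scored 3.45, 3.25 and 3.69. On 3R, the region from 6585680 to 6588170 scored 3.38, 3.06 and 3.78. The remaining 2 were on 2R, from 14857567 to 14861524 (3.37, 3.39 and 3.36) and from 3164600 to 3167089 (3.35, 3.27 and 3.41). All 10 matched a single cluster in each replicate that ranked at or above the 96.2 percentile of its list.

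Some isolated regions were weak in every list and were still recovered in both replicates. The 5 lowest-scoring regions overlapped in both replicates scored from 0.0874 to 0.137 in the replicate set. Of these, 2L from 7634412 to 7636272 scored 0.0874 in the replicate set, 0.235 in replicate 1 and 0.136 in replicate 2, at percentiles 1.58 and 0.339. The others were 2L from 15584728 to 15586400, 2R from 17877720 to 17879601, 3R from 3439965 to 3441781 and 2L from 11762919 to 11764617. All 5 were between 1673 and 1882 bp wide, and their clusters stood no higher than percentile 5.20 in replicate 1 and 3.25 in replicate 2.

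The regions farthest from any neighbour scored near or below the median of all isolated regions (0.445), with 1 exception. Low scores were not particular to the farthest regions. Over all isolated regions, the rank correlation between the smaller gap and score was only 0.0440. The largest smaller gap, 154649 bp, belonged to 3L from 24223682 to 24225699, which scored 0.403 in the replicate set and matched clusters at percentile 4.48 in replicate 1 and 23.3 in replicate 2. The region on 2L from 17962269 to 17964252 (smaller gap 154628 bp) scored 0.291 and stood at percentiles 1.11 and 10.6. Neither replicate overlapped X from 22116079 to 22117347 (134910 bp, score 0.446) or 3R from 12623684 to 12624741 (99440 bp, score 0.348). The exception was 3L from 22399965 to 22402488, with 117149 bp free on its nearer side. It scored 2.69 in the replicate set, 2.75 in replicate 1 and 2.65 in replicate 2, at percentiles 94.0 and 86.5.

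Isolated regions found in neither replicate were narrow, and a few had scores well above the median. Of the 75, 42 were narrower than any cluster of the replicate lists, as were 349 of the 646 others found in neither. The median width of the 75 was 1269 bp, against 1272.5 bp for these 646, so the narrow widths were not particular to isolated regions. The highest-scoring was 3R from 19341296 to 19342476, 1181 bp wide, with a score of 1.55 and rank 1814 on the 5 arms. Then came 2L from 22785202 to 22786367 (1166 bp, score 1.10), X from 5374881 to 5376088 (1208 bp, 0.840), X from 3442253 to 3443794 (1542 bp, 0.583) and 2L from 15657271 to 15658859 (1589 bp, 0.575). The narrowest isolated regions were 5 of 1001 bp each. Neither replicate overlapped 4 of them, X from 20592469 to 20593469, 2R from 16358681 to 16359681, 3L from 13349092 to 13350092 and 3R from 6875709 to 6876709. Replicate 1 alone overlapped X from 734520 to 735520, with a cluster of 1629 bp.

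Regions recovered in 1 replicate alone mostly ranked low there. The 61 found in replicate 1 alone had a median percentile of 15.5, from 1.45 to 61.0, and the 41 found in replicate 2 alone had a median of 18.3, from 0.393 to 54.2. In replicate 1 alone the highest replicate-set score, 0.830, was that of X from 21815836 to 21817473, whose cluster stood at percentile 61.0. It was followed by 3L from 23364184 to 23366189 (score 0.641, percentile 39.1) and X from 4374839 to 4375904 (0.546, percentile 29.9). In replicate 2 alone they were X from 9903220 to 9905302 (0.621, percentile 54.2), 3L from 20132830 to 20134911 (0.609, percentile 52.3) and X from 15055851 to 15057151 (0.607, percentile 29.1). Of these 6 regions, 4 were on X. They were picked by score, so this count does not give the share of X among all regions found in 1 replicate alone.

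A few regions recovered in both lists ranked far apart in them. On X from 4701071 to 4703132 the cluster scored 1.41 in replicate 1 and 0.384 in replicate 2, at percentiles 66.8 and 10.6. On 3L from 21671852 to 21674156 the order was the opposite, with 0.649 and 2.35, at percentiles 32.9 and 81.5. The next were 2L from 9828058 to 9830110 (percentiles 48.6 and 0.482), 3R from 23333498 to 23335514 (42.6 and 1.76) and 2L from 6396393 to 6398455 (41.6 and 2.61). In 4 of these 5 regions replicate 1 ranked higher.

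In the replicate set, isolated regions were sparser on X and 2R than on the other arms. It held 2.63 per Mb on X and 2.79 on 2R, against 3.95 on 3L, 3.83 on 3R and 4.30 on 2L. When the rule was run on each replicate list, X held 3.23 ± 0.221 per Mb, 2R 3.57 ± 0.568, 2L 4.69 ± 0.307, 3L 4.20 ± 0.0576 and 3R 3.83 ± 0.203 (SD, n = 2 each). The density on X was 0.702 times that of the other arms in the replicate set, 0.850 in replicate 1 and 0.740 in replicate 2. In the replicate lists, 2R differed from 3R by less than its own spread between replicates. Of the regions under 5000 bp on an arm, the isolated made up 4.02% on X (exact 95% interval 3.07 to 5.15), 5.02% on 2R (3.84 to 6.42), 7.42% on 3R (6.12 to 8.90), 7.60% on 3L (6.20 to 9.19) and 8.93% on 2L (7.31 to 10.8). Neighbouring regions share a gap, so they are not independent as these intervals assume, and the intervals leave out the spread between libraries. X held 1469 regions under 5000 bp on 22.4 Mb, the largest number of the 5 arms, and the part of this density in the result was not tested.

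The isolated regions of X lacked the high scores seen on the autosomes. The highest on X ran from 1665861 to 1668921, with gaps of 77404 and 48481 bp. It scored 1.83 in the replicate set, where it ranked 1402, and 1.55 in replicate 1 and 2.14 in replicate 2. On 2R, 2L, 3L and 3R the highest scores of isolated regions were 4.31, 4.29, 3.59 and 3.38. The highest 25% of scores held 3 of the 59 isolated regions of X (5.08%) and 295 of its other regions under 5000 bp (20.9%). On each autosomal arm the share was also lower for isolated regions than for the others. It was 9.09% against 23.7% on 2L and 13.1% against 26.8% on 3R. On 3L it was 16.5% (16 of 97) against 21.3%, and on 2R 16.9% against 24.4%. The median was nevertheless not lower on X, at 0.546, against 0.447 on 2R, 0.436 on 3L and 0.413 on both 2L and 3R. Both replicates overlapped 27 of the 59 on X (45.8%), against 66.6% of the other regions of X. On the autosomal arms the isolated regions were recovered in both at shares from 57.7% (3L) to 62.7% (2R), and the other regions from 71.7% (2L) to 73.0% (3R). The share in neither was not highest on X. It was 22.0% of the isolated regions of X and 22.4% of those of 3R, against 13.8% and 9.06% of the other regions there. On 2L, 2R and 3L it ran from 14.1% to 15.5% of the isolated regions. In replicate 1, 67.8% of the isolated regions of X were overlapped, and in replicate 2 it was 55.9%. The mean of 61.9% ± 8.39 differed from that of 3R, 68.7% ± 7.27, by less than these spreads (SD, n = 2 each). The means of 3L, 71.1% ± 1.46, 2L, 73.2% ± 0.714, and 2R, 73.7% ± 1.20, differed from that of X by more than either SD. Without X, 59.9% of 362 isolated regions and 72.3% of 4642 others were overlapped in both.

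**Figure D5:**
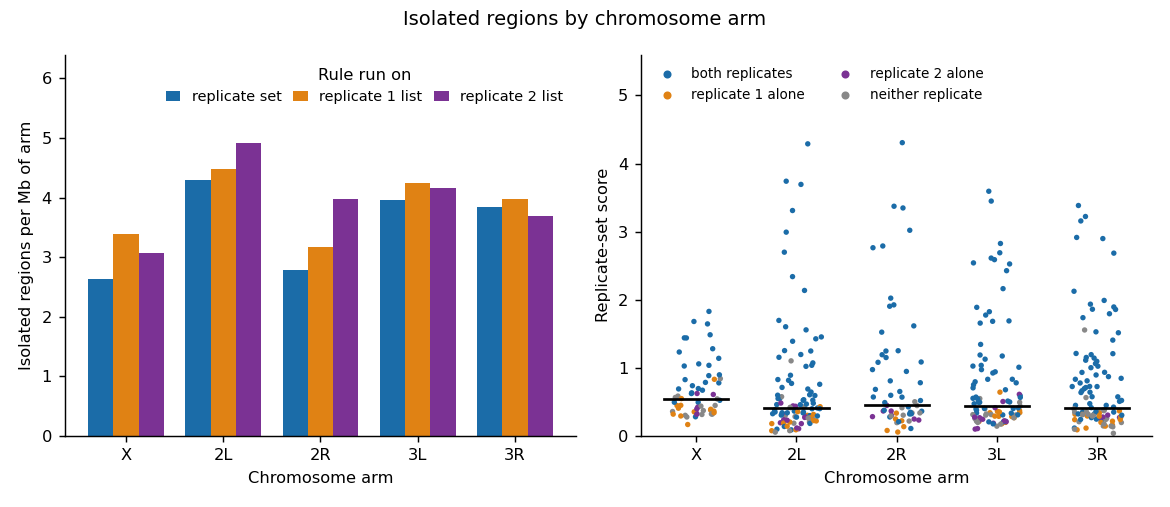
Isolated regions per Mb of each arm (left) when the rule is run on the replicate set, the replicate 1 list or the replicate 2 list, and replicate-set score of each isolated region (right), coloured by recovery, with the median as a black line. The points on X stop at 1.83, and those on 2R and 2L reach 4.31 and 4.29.

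Isolated regions were spread along the arms, and many lay in runs, which the rule itself favours. In bins of 1 Mb counted from the centromere end, 117 full bins held a median of 3 and at most 9. Only 4 of these bins held none, 3 on X and 1 on 2R. The bin with 9 lay on 3L, between 1 and 2 Mb from the centromere end. The centromere-proximal 1 Mb held 4 isolated regions on 2L and 2 each on X, 2R, 3L and 3R. No neighbour of 191 isolated regions was itself isolated, and the other 230 lay in 93 runs of consecutive isolated regions, 60 of them pairs, 24 of 3, 7 of 4 and 2 of 5. A region beside an isolated one already meets the gap limit on that side, so the runs are given as a description.

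The longest run spanned 376.7 kb of 3L, from 23198112 to 23574852, and its 5 regions differed widely. The region from 23330160 to 23333513 scored 2.61 in the replicate set, 1.49 in replicate 1 and 3.37 in replicate 2, at percentiles 69.0 and 96.5. The other 4 scored between 0.265 and 0.641, and each was overlapped in at most 1 replicate. The other run of 5, over 215.1 kb of 3R from 2584412 to 2799523, held 2 regions recovered in both replicates, 1 in replicate 1 alone and 2 in neither. The stronger of its recovered regions, from 2737079 to 2739598, scored 1.93 in the replicate set, 1.66 in replicate 1 and 2.20 in replicate 2. Strong and weak regions thus stood side by side in both runs.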

How the data were processed

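ChIP-seq region lists were used, 1 for each of the 2 HP1c ChIP libraries and 1 for the replicate set. The submitters' processing notes name Bowtie 0.12.7 as a tool, and the build is FlyBase release 5, per the file headers. The score of each region was deposited by the authors. How regions were called and scored, on what scale, and how replicates were combined is not stated there. The inputs carry no list, and depth is unknown. From the lists, gaps were computed as the next start minus the previous end among enriched regions of the 5 arms. Overlap meant at least 1 bp, with the cluster of largest overlap as the match. Score percentiles are within the clusters of the 5 arms of 1 list. Shares carry exact (Clopper-Pearson) 95% intervals, and medians of edge shifts carry binomial order intervals. No hypothesis test was made, since the combined list shares its libraries with the replicates. The search for overlaps and gaps was tested on simulated data.

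The isolated regions, their limits and the comparisons were chosen with earlier results of these data known. Reweighting by width and score, the classes of gap and the omission of X were added after seeing the data. Named regions are, by rule, the 10 highest and 5 lowest in score among those in both replicates, the highest of each arm, the 5 with the largest smaller gap, the 3 widest and narrowest, the 5 highest in neither, the 3 highest in each replicate alone, the 5 that differ most in percentile, the longest run, and the 3 on each side of each limit. The 2 runs of 5 tied, as did the 5 narrowest regions, and all tied regions are given. No genome or annotation of release 5 was used here, so sequence and genes were not analysed. The tools were scipy 1.17.1, pandas 2.3.3 and numpy 2.4.6 under Python 3.11.15, with figures drawn in matplotlib 3.10.9.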

Additional observations from a re-analysis of the deposited data

How the results depend on the processing

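Of 43 alternatives to 8 results, 30 stayed within 1.5 times the value for a count, or within the spread between replicates or the 95% interval for other values, and 13 moved further. The number of isolated regions was 1097 with a minimum gap of 10000 bp and 201 with 30000 bp, which follows from the limit. The share overlapped in both replicates was 69.6% when regions in neither replicate were removed before gaps were measured. Removing unrecovered regions in itself raises this share. With the upper 50% by score alone, the share in both was 98.4%, the share in neither was 1.40% and the mean of the replicates' median percentiles was 65.4, against 34.2. Selection by score in itself moves these values, since recovery rose with score. The mean of the median percentiles was 29.1 for widths under 3000 bp. The score correlation, 0.868, was 0.931 as Pearson's r and 0.866 with exactly 1 cluster in each replicate. Both were counted as moved, but the correlation has no interval or spread between replicates here to judge that by. The density ratio of X to the other arms was 0.555 as a share of regions under 5000 bp, against 0.702 per Mb.

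Without each replicate, the number ran from 461 to 471, the share overlapped in the remaining replicate from 67.7% to 72.4%, the median percentile from 31.8 to 36.6, the share isolated in its own list from 97.2% to 99.0% and the X ratio, added after seeing the data, from 0.740 to 0.850. No paired analysis was possible because no list belongs to the inputs. Depth is unknown, and its effect was not tested.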

Other observations

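The replicate set names 15 regions of the 5 arms as depleted, and 3 of them touched a stretch around an isolated region. These stretches covered 31.9% of the arms. The single depleted region of the 5 arms in each replicate list touched none.

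Of the 116 isolated regions that replicate 1 did not overlap, 3 had a cluster of that replicate within 20 kb, and the nearest stood 1017 bp away. Of the 136 that replicate 2 did not overlap, none had a cluster of that replicate within 20 kb, and the nearest stood 20088 bp away. The regions were chosen for their gaps in a list combined from the same libraries, so the rule largely fixes these counts. Clusters lying wholly in the gaps beside an isolated region were seen for 13 isolated regions in replicate 1 and 9 in replicate 2.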
